A study of Bos taurus with 34 samples.

Results

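WLS, CEP164, LONRF3 and C3H1orf226 are 4 genes without a classical role in leukocytes whose abundance in peripheral white blood cells (PWBC) was higher in non-pregnant heifers. Abundance is given as CPM, counts per 1000000 counts on the genes kept. The genes are 4 of the 27570 genes in the deposited count table, and all 4 are among the 10942 genes that reached 2 CPM in at least 5 libraries. The CPM values of the pregnant and non-pregnant groups chose them, so those differences are given as a description, without a test. The identifiers in the table are ENSBTAG00000012976 for WLS, ENSBTAG00000014137 for CEP164, ENSBTAG00000002615 for LONRF3 and ENSBTAG00000050790 for C3H1orf226.

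Blood was drawn right after fixed-time artificial insemination (AI) from Angus-Simmental crossbred heifers, just over a year old, that had been synchronized alike and bred with semen of a single sire. Bulls were put with the heifers later, and pregnancy was read by palpation. The groups, labelled AI-pregnant, NB-pregnant and not-pregnant, were 6 heifers pregnant to AI (AI-preg), 6 pregnant to natural breeding (NB-preg) and 5 that did not become pregnant (non-pregnant). Each heifer gave 1 PWBC library and 1 plasma small RNA library, so the replicate is the heifer. PWBC were the buffy coat after red cell lysis, a mixture of all white cells. In such a mixture, fewer cells of a type and less RNA per cell cannot be told apart.

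WLS encodes the membrane protein that carries lipid-modified Wnt ligands from the Golgi to the cell surface, and cells that lack it cannot secrete Wnts. CEP164 is a protein of the distal appendages, the structures by which the older centriole docks at the membrane when a primary cilium is built. It recruits the kinase TTBK2, and it has also been linked to the DNA damage kinases ATR and ATM. LONRF3 belongs to a small family of proteins with a RING finger, the fold of many ubiquitin ligases, and a LON domain. C3H1orf226 is the cattle counterpart of an open reading frame on human chromosome 1, and no function is given for it here. In the RefSeq order of protein-coding genes on the assembly ARS-UCD2.0, WLS lies on chromosome 3 between RPE65 and DIRAS3, C3H1orf226 on the same chromosome between SH2D1B and SPATA46, CEP164 on chromosome 15 between BACE1 and DSCAML1, and LONRF3 on chromosome X between ZCCHC12 and CT47C1.

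Between 4184999 and 20164587 read pairs were counted in non-pregnant PWBC libraries and between 6402207 and 67192941 in those of pregnant heifers. On the first principal component of all genes, the top scores (81.3 to 115) were those of heifers 94, 107 and 113, all non-pregnant, and heifer 115 of the same group had the lowest (-136). The differences of the 4 genes, their partners and the neutrophil markers are therefore also given without the first 3, and those of the 4 genes without heifer 115. Defining markers could be looked up only where the study's tables pair a symbol with an identifier, which left 13 of 58 listed markers and none for monocytes, T cells, red cells or basophils. Markers of neutrophils, eosinophils, B cells, plasma cells, NK cells and platelets were all detected.

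WLS was well above its level in most pregnant heifers in 4 of 5 non-pregnant heifers. Its CPM was 409, 44.1, 387, 314 and 156 in non-pregnant heifers 94, 101, 107, 113 and 115. In AI-preg heifers the lowest value was 19.1, the median 35.6 and the highest 129, and in NB-preg heifers they were 19.9, 32.3 and 234. Heifers 94, 107 and 113 were above every pregnant heifer, heifer 115 was above all but NB-preg heifer 116, and heifer 101 lay within the pregnant range. The log2 fold change of pregnant over non-pregnant heifers was -2.19 ± 0.56 (SE, 12 and 5 heifers). At least 184 read pairs per heifer stand behind each of these values.

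LONRF3 had CPM values of 52.4, 7.19, 30.7, 27.8 and 40.4 in non-pregnant heifers 94, 101, 107, 113 and 115. Its lowest, median and highest CPM were 2.15, 3.95 and 26.5 in AI-preg heifers and 1.2, 6.15 and 73.2 in NB-preg heifers. The highest LONRF3 value of all 17 heifers thus belonged to a pregnant one, heifer 116 of NB-preg, and all 5 non-pregnant heifers were below it. As for WLS, heifer 115 was high and heifer 101 was low. The log2 fold change of pregnant over non-pregnant heifers was -1.56 ± 0.75 (SE), and without heifer 116 it was -2.43 ± 0.60.

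CEP164 had few reads, with CPM values of 13.2, 6.71, 10.2, 16.9 and 3.44 in the same 5 non-pregnant heifers. AI-preg heifers spanned 0.0805 to 1.96 CPM with a median of 1.2, and NB-preg heifers 0.0666 to 4.36 CPM with a median of 1.76. All 5 non-pregnant heifers were above all 6 AI-preg heifers, and only NB-preg heifer 103 was above any of them, namely heifer 115. Such an order, with every non-pregnant heifer above every AI-preg heifer, was seen in 7 of the 10942 genes (0.0640%), and since the same values chose CEP164 nothing is read from it. Across all 12 pregnant heifers, no gene had every non-pregnant heifer above them. The log2 fold change of pregnant over non-pregnant heifers was -2.73 ± 0.69 (SE).

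Counting error is large for CEP164 in some pregnant heifers. AI-preg heifer 119 had 2 read pairs, or 0.0805 CPM with an exact 95% interval of 0.00974 to 0.291, and NB-preg heifer 121 had 1 read pair, with an interval of 0.00169 to 0.371 CPM. Non-pregnant heifers 101 and 115 had 28 read pairs each, with intervals of 4.46 to 9.70 CPM and 2.29 to 4.97 CPM. These intervals do not overlap those of heifers 119 and 121, the lowest of the pregnant heifers, but both overlap that of NB-preg heifer 103 (3.18 to 5.84 CPM). The interval of heifer 115 also overlaps those of pregnant heifers 99, 108, 114 and 116. Since the same values chose CEP164, nothing is read from these comparisons. Such intervals are Clopper-Pearson intervals and cover counting error only.

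C3H1orf226 split the non-pregnant heifers most clearly. Its CPM was 40.4, 31.0 and 13.7 in heifers 94, 107 and 113, but 1.44 in heifer 101 and 0.860 in heifer 115. AI-preg heifers had a lowest value of 0.194, a median of 1.02 and a highest of 2.67 CPM, and NB-preg heifers 0.493, 2.31 and 4.69 CPM. Heifers 101 and 115 were therefore inside the range of both pregnant groups, on 6 and 7 read pairs (exact 95% intervals of 0.528 to 3.13 and 0.346 to 1.77 CPM). The log2 fold change of pregnant over non-pregnant heifers was -3.31 ± 0.75 (SE).

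**Figure D1:**
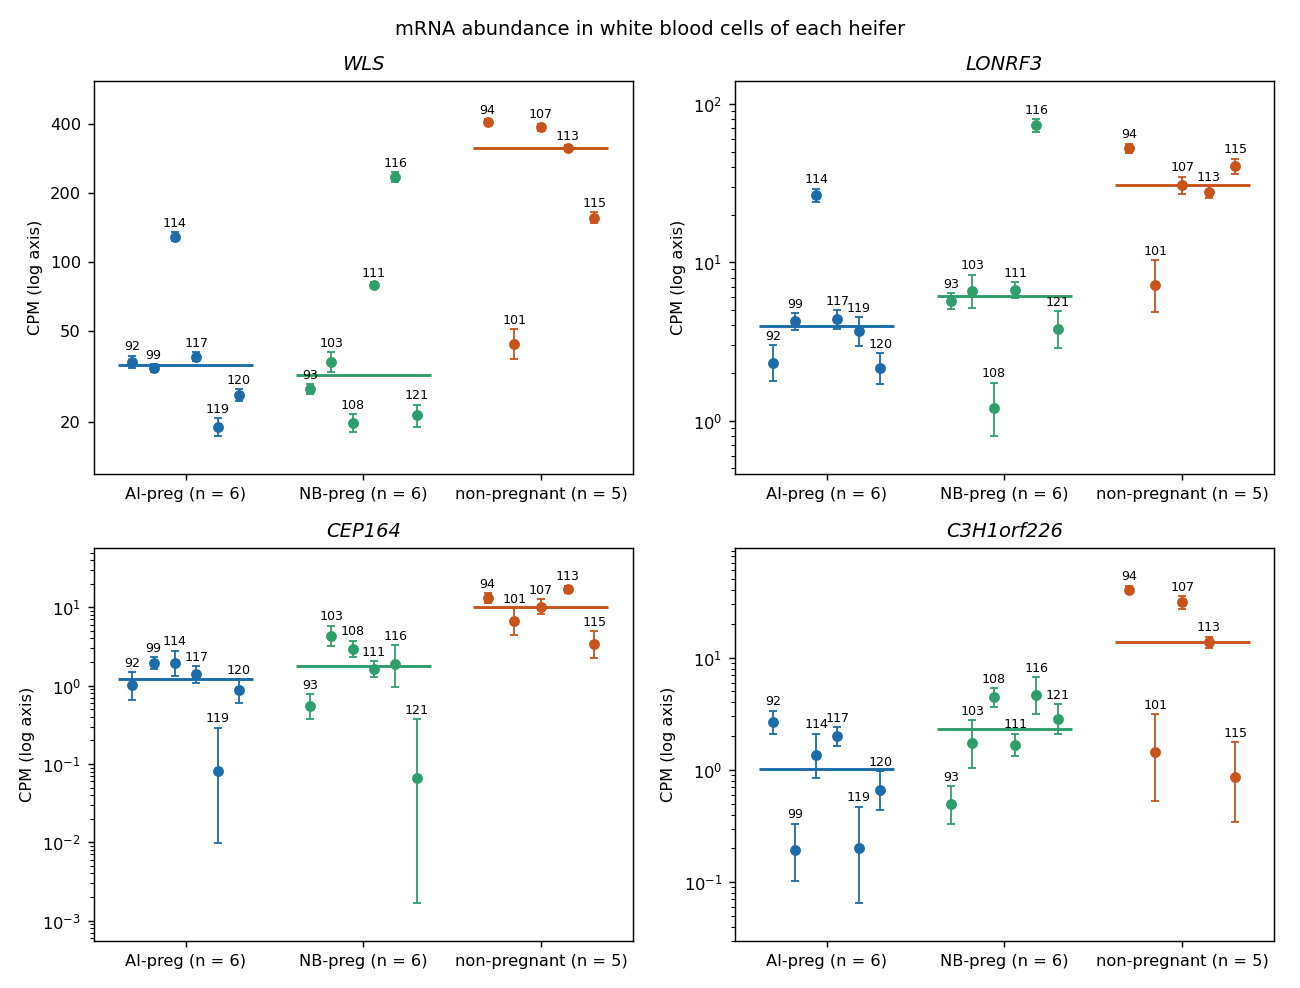
CPM of each gene on a log axis in PWBC of each heifer, by group, with the heifer's number. Bars are exact 95% counting intervals and horizontal lines group medians. Heifers 94, 107 and 113 are high in all 4 panels. Heifer 115 is high for WLS (156 CPM) and LONRF3 (40.4 CPM), and pregnant heifers 114 and 116 stand apart for the same genes. For CEP164 heifer 115 (3.44 CPM) is above every pregnant heifer but 103, and for C3H1orf226 it lies within the pregnant range.

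Relative to the median of the 12 pregnant heifers, heifer 94 had 11.5 times as much WLS, 12.2 times as much LONRF3, 8.72 times as much CEP164 and 23.6 times as much C3H1orf226. For heifer 115 the corresponding ratios were 4.38, 9.40, 2.27 and 0.502. Heifer 101 had 4.42 times the pregnant median of CEP164 and between 0.839 and 1.67 times that of the others. Not one of the 5 heifers was therefore low for every gene, while 3 were high for all 4.

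The differences were also computed without heifers 94, 107 and 113, a set chosen after their values were seen. On the log2(CPM + 1) scale, the mean of non-pregnant heifers was above that of pregnant heifers by 2.26 for WLS, 2.01 for LONRF3, 2.11 for CEP164 and 1.93 for C3H1orf226. With heifers 101 and 115 alone, the same differences were 0.98 for WLS, 1.42 for LONRF3, 1.34 for CEP164 and -0.27 for C3H1orf226, so that the last turned its sign. CEP164 reached 2 CPM in 7 libraries, 2 of them from pregnant heifers, and C3H1orf226 also in 7, with 4 from pregnant heifers. Neither gene reached the minimum for testing once the 3 libraries were left out, so both were tested only through the non-pregnant heifers. WLS was at 2 CPM or more in all 17 libraries and LONRF3 in 16. In the edgeR fit without the 3 heifers, the log2 fold change of pregnant over non-pregnant heifers was -0.80 ± 0.81 for WLS and -1.15 ± 1.13 for LONRF3 (SE, 12 and 2 heifers). Without heifer 115 alone, the fold changes were -2.33 ± 0.59 for WLS, -1.46 ± 0.81 for LONRF3, -2.96 ± 0.70 for CEP164 and -3.62 ± 0.70 for C3H1orf226.

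Markers of several cell types, neutrophils among them, were high in heifers 94, 107 and 113. The neutrophil markers CSF3R (the receptor of granulocyte colony-stimulating factor), CXCR2 (a chemokine receptor), TREM1 (an activating receptor) and S100A12 (a calcium-binding protein of neutrophils) are the 4 of 8 listed that could be looked up. Their summed level was 167 to 12979 CPM in non-pregnant heifers, 76.7 to 4132 CPM in AI-preg heifers and 220 to 2865 CPM in NB-preg heifers. CSF3R had 1101, 636 and 1241 CPM in heifers 94, 107 and 113, against 12.5 and 42.3 CPM in heifers 101 and 115 and at most 123 CPM in pregnant heifers. In pregnant over non-pregnant heifers, CSF3R had a log2 fold change of -4.20 ± 0.91 (SE), the largest in size of the 4 markers, and TREM1 one of -1.91 ± 0.60, the smallest. None of the 13 markers of any cell type passed an adjusted p of 0.05 in this contrast (lowest 0.506, edgeR quasi-likelihood test). By the same test 7 had an unadjusted p under 0.05, as had 986 of all 10942 genes (9.01%). Of these 7, the plasma cell gene TNFRSF17 was higher in pregnant heifers (log2 fold change 1.76 ± 0.65, SE), while the others were lower. The 13 markers have a symbol because the study's tables list genes from results on the same heifers. They are not a neutral sample of markers, so nothing is read from the count of 7. Without heifers 94, 107 and 113, the log2 fold changes of the 4 neutrophil markers lay between -0.04 and 1.98, with 0.27 ± 1.28 for CSF3R and 0.06 ± 0.91 for TREM1.

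The T cell genes LCK and GATA3 were above every pregnant heifer in the same 3 heifers, while the plasma cell genes were not. The T cell kinase LCK had 401, 288 and 342 CPM in heifers 94, 107 and 113, against 41.0 and 3.32 CPM in heifers 101 and 115 and at most 247 CPM in pregnant heifers. GATA3, a transcription factor of T cells, had 41.2, 40.8 and 38.9 CPM in the 3 heifers and at most 32.2 CPM in pregnant heifers. Both were chosen after their symbols had been seen. CD79A, a chain of the B cell receptor complex, had 252, 167 and 504 CPM in the 3 heifers and at most 239 CPM in pregnant heifers, so heifer 107 lay within the pregnant range. It is 1 of 3 B cell markers that could be looked up, and the others are not reported here, so it does not stand for B cells as a whole. The log2 fold changes of pregnant over non-pregnant heifers were -1.10 ± 0.73 for LCK, -0.71 ± 0.36 for GATA3 and -1.27 ± 0.81 for CD79A (SE, adjusted p of 0.62, 0.56 and 0.62, edgeR quasi-likelihood test).

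The eosinophil receptor IL5RA had 12.9 to 36.8 CPM in non-pregnant heifers and 3.73 to 17.4 in pregnant heifers. The plasma cell genes JCHAIN, the joining chain of IgA and IgM, and TNFRSF17, a survival receptor, had a summed level of 184 to 1643 CPM in non-pregnant heifers and of 231 to 3329 CPM in pregnant heifers. JCHAIN had 544, 182 and 222 CPM in heifers 94, 107 and 113, against 1635 and 810 CPM in heifers 101 and 115 and a pregnant median of 1476 CPM. TNFRSF17 had 2.19, 1.84 and 3.53 CPM in heifers 94, 107 and 113, below every pregnant heifer (at least 3.91 CPM), and 7.91 and 0.983 CPM in heifers 101 and 115. The NK cell granule protein NKG7 spanned 2.83 to 69.6 CPM in non-pregnant and 7.6 to 41.2 CPM in pregnant heifers. The platelet markers differed from each other in where they were high. ITGA2B, a platelet integrin chain, had 41.4, 49.4 and 64.3 CPM in heifers 94, 107 and 113, above every pregnant heifer (at most 29.3 CPM), and 6.71 and 0.123 CPM in heifers 101 and 115. TUBB1, a platelet tubulin, had 0.0646, 0.491 and 85.0 CPM in heifers 94, 107 and 113, and 418 and 1530 CPM in heifers 101 and 115.

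With the mean level of the 4 neutrophil markers as a covariate, the log2 fold changes of pregnant over non-pregnant heifers were -0.90 ± 0.45 for WLS, -0.93 ± 0.69 for LONRF3, -1.53 ± 0.71 for CEP164 and -0.07 ± 0.89 for C3H1orf226 (SE, no test). The values without the covariate were between -3.31 and -1.56. The covariate itself differs between the groups, and it was measured in the same libraries. Without heifers 94, 107 and 113, a choice made after the data had been seen, the fold changes with the covariate were -1.22 ± 0.59 for WLS and -1.74 ± 0.90 for LONRF3. The part of cell composition in the differences of the 4 genes was not tested.

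**Figure D2:**
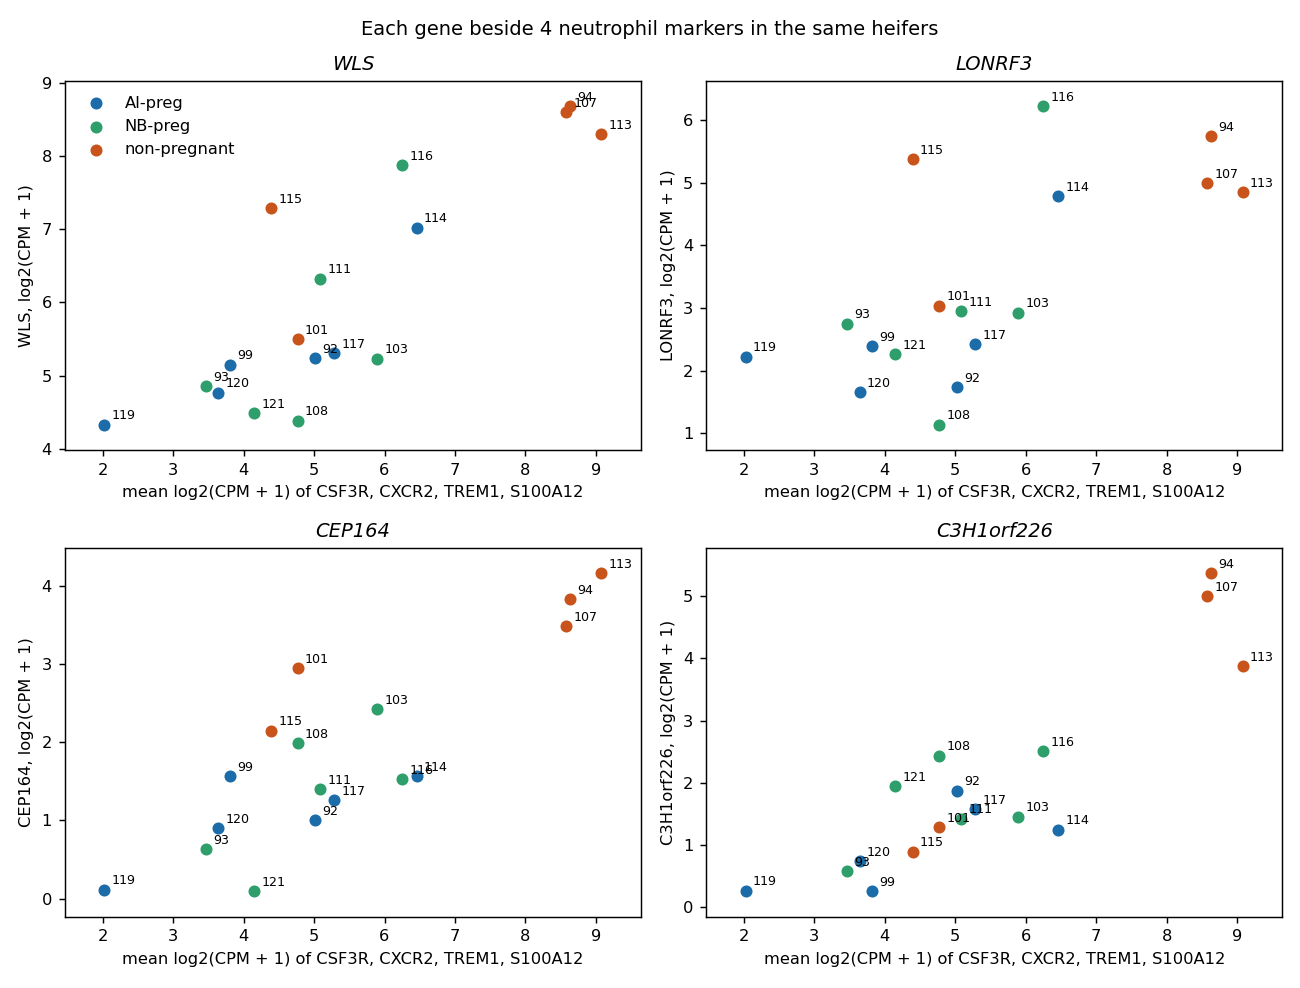
Level of each gene as log2(CPM + 1) against the mean log2(CPM + 1) of the neutrophil markers CSF3R, CXCR2, TREM1 and S100A12, with 1 point per heifer. Heifers 94, 107 and 113 lie at the far right of every panel, and heifer 115 lies high for WLS and LONRF3 at a marker level that pregnant heifers also have.

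The contrast of AI-preg with NB-preg heifers did not choose the genes, and it was tested. CEP164 and C3H1orf226 reached 2 CPM in only 2 and 4 pregnant libraries, so they entered this test through the non-pregnant heifers. Nothing is read from the test for these genes. None of the 4 was called between the pregnant groups at an adjusted p under 0.05 (edgeR quasi-likelihood test), nor was any other gene (0.00% of 10942). At an unadjusted p under 0.05, 16 genes differed by this test and 71 by DESeq2. The log2 fold change of AI-preg over NB-preg heifers was negative for all 4 genes. The median CPM of WLS was nonetheless higher in AI-preg (35.6) than in NB-preg heifers (32.3). The fold changes were -0.56 ± 0.65 for WLS, -1.16 ± 0.87 for LONRF3, -0.65 ± 0.80 for CEP164 and -1.16 ± 0.88 for C3H1orf226 (SE, 6 and 6 heifers, adjusted p of 1.00 each). Each of these differences is less than 1.5 times its standard error.

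A single heifer decided the sign for WLS and LONRF3. Without NB-preg heifer 116 the log2 fold change turned to 0.35 for WLS and to 0.58 for LONRF3. Without AI-preg heifer 114 it became -1.17 and -2.26. CEP164 and C3H1orf226 kept a negative fold change with each heifer left out, from -0.90 to -0.22 for CEP164 and from -1.57 to -0.92 for C3H1orf226.

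**Figure D3:**
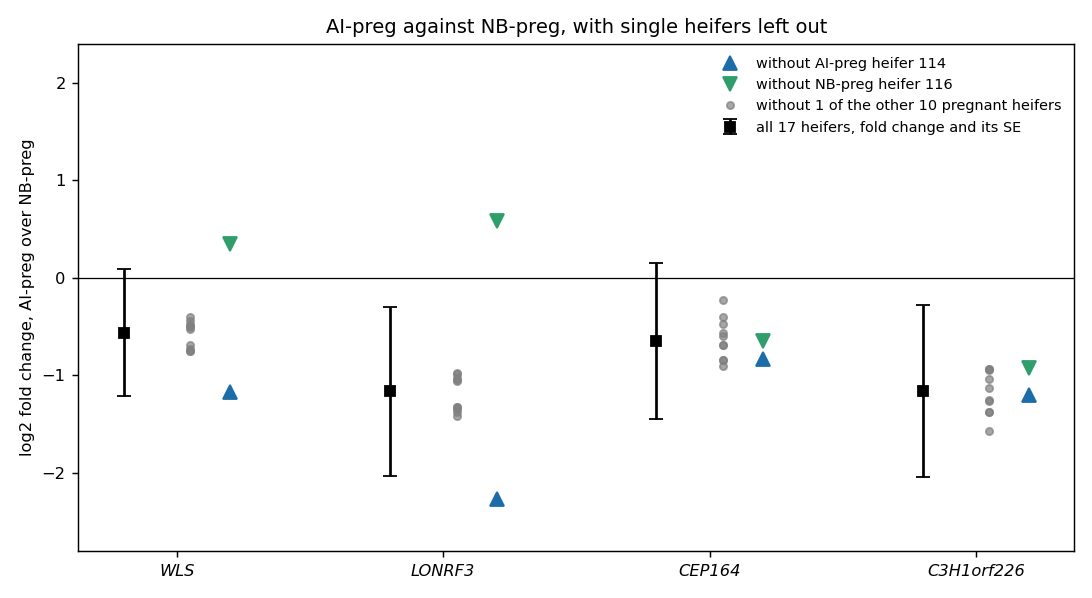
Log2 fold change of AI-preg over NB-preg heifers for each gene with all heifers (black squares, bars are 1 SE) and with 1 pregnant heifer left out (grey points, triangles for heifers 114 and 116). For WLS and LONRF3 the point without heifer 116 lies above 0, at 0.35 and 0.58.

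Heifers 114 and 116 stood apart within their groups for WLS and LONRF3 but not for CEP164. AI-preg heifer 114 had 129 CPM of WLS and 26.5 CPM of LONRF3, which are 3.62 and 6.16 times the pregnant medians. NB-preg heifer 116 had 234 CPM of WLS and 73.2 CPM of LONRF3, which are 6.58 and 17.0 times the pregnant medians. For CEP164 their ratios were 1.29 and 1.24, and for C3H1orf226 they were 0.80 and 2.74, with heifer 116 the highest of the pregnant heifers. Both were the shallowest libraries of their group, with 15327671 and 6394415 read pairs on the genes kept, and the neutrophil markers were not alike in them. CXCR2 was highest in these 2 of the pregnant heifers, at 29.0 and 85.9 CPM, and so was CSF3R, at 123 and 61.1 CPM. TREM1 (7.57 and 6.57 CPM) was near the pregnant median of 6.47, and S100A12 had 1878 CPM in heifer 114 and 823 CPM in heifer 116 against a pregnant median of 851. The part of depth or of neutrophil RNA in the high values of these 2 heifers was not tested.

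Differences among the 12 pregnant heifers did not choose the genes, and within these heifers the 6 pairs of the 4 genes were correlated on the log2(CPM + 1) scale. WLS and LONRF3 was the only pair past the threshold, with Pearson's r = 0.91 (permutation p = 0.00027, adjusted over 6 pairs 0.0016) and Spearman's rho = 0.79 (permutation p = 0.0033, adjusted 0.020). The r was 0.89 within AI-preg and 0.93 within NB-preg heifers. Without heifers 114 and 116, r over the other 10 was 0.58 (permutation p = 0.080), so the relation rests on those heifers. No pair passed the threshold among these 10.

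CEP164 was not tied to the other genes to that degree in pregnant heifers. Its r was 0.37 with WLS, 0.33 with C3H1orf226 and 0.22 with LONRF3, with permutation p-values from 0.23 to 0.50. C3H1orf226 had r = 0.34 with WLS and 0.24 with LONRF3 (permutation p = 0.28 and 0.48). CEP164 and C3H1orf226 passed the filter only through the non-pregnant heifers and had few reads in pregnant heifers. Their relations within pregnant heifers, here and below, are therefore a description. Over all 17 heifers, where the choice of the genes enters, r was 0.92 for WLS and LONRF3, 0.73 for CEP164 and C3H1orf226 and as low as 0.54 for LONRF3 and C3H1orf226. The last values are a description.

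**Figure D4:**
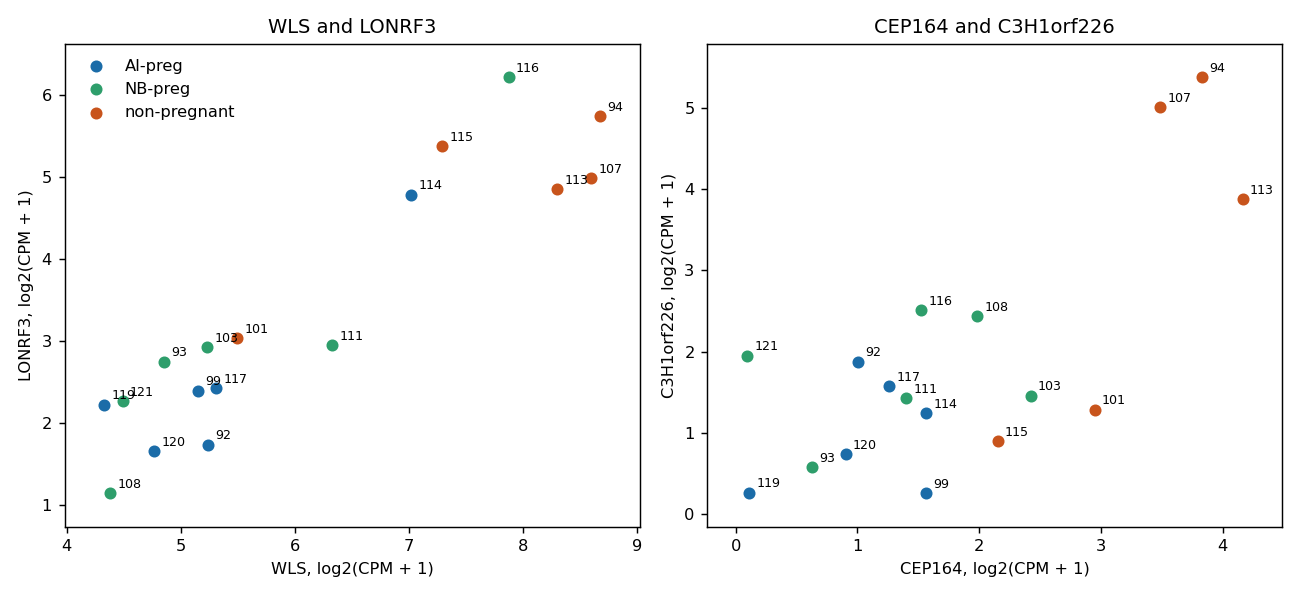
Log2(CPM + 1) of LONRF3 against WLS and of C3H1orf226 against CEP164, with 1 point per heifer coloured by group. Pregnant heifers 114 and 116 lie among the high non-pregnant heifers for WLS and LONRF3 (r = 0.91 over 12 pregnant heifers). For CEP164 and C3H1orf226 (r = 0.33) they lie near other pregnant heifers, with heifer 116 the highest of these for C3H1orf226 (4.69 CPM).

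In the pregnant heifers, each gene was also set against library depth and the mean level of 6 marker lists, 28 relations in all. No relation passed an adjusted p of 0.05 by Pearson's r. By Spearman's rho, WLS with the neutrophil markers did (rho = 0.83, permutation p = 0.0014, adjusted 0.039), for which Pearson's r was 0.74 (permutation p = 0.0054, adjusted 0.091) and 0.66 without the 2 heifers farthest from the median. The corresponding r with neutrophil markers was 0.70 for CEP164, 0.66 for C3H1orf226 and 0.59 for LONRF3 (permutation p = 0.012, 0.019 and 0.045, adjusted 0.11 to 0.16). CEP164 had r = -0.74 with the plasma cell genes (permutation p = 0.0065, adjusted 0.091), and this was -0.41 without 2 heifers. Depth gave negative values for all 4 genes, from r = -0.60 for C3H1orf226 to -0.22 for CEP164 (adjusted permutation p of 0.16 or more).

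The single neutrophil markers were not alike in this respect. These 16 relations were added after the data had been seen. WLS and LONRF3 followed CXCR2, with r = 0.90 and 0.93 (permutation p = 0.00047 and 0.00037, adjusted 0.0038 each), although without heifers 114 and 116 r was 0.51 and 0.55. C3H1orf226 followed CSF3R (r = 0.75, permutation p = 0.0049, adjusted 0.026), and without heifers 114 and 119 r was 0.85. CEP164 was nearest to CSF3R and S100A12 (r = 0.68 and 0.65), with adjusted permutation p-values of 0.060 each. None of the 16 passed by Spearman's rho after adjustment.

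The genes with the most similar pattern were found among the 2224 genes with a symbol in the study's tables, and their likeness is Pearson's r of log2(CPM + 1), as a description. Over 17 heifers, WLS was most like CDA, a cytidine deaminase of pyrimidine salvage (r = 0.97), PPP1R3B, which brings protein phosphatase 1 to glycogen (0.95), and C5AR1, the receptor for complement C5a (0.95). LONRF3 was most like PPP1R3B, the RNA-binding protein RBM47 and the ectoenzyme BST1 (r = 0.95 for each). PPP1R3B was thus on both lists. CEP164 was most like the leukocyte actin-binding protein LSP1 (0.88), the adhesion molecule JAML (0.88) and NCF1, a subunit of the phagocyte NADPH oxidase (0.88). C3H1orf226 was most like WFS1, a protein of the endoplasmic reticulum (0.90), CSF3R (0.88) and MARCKSL1, which binds actin (0.86).

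Over the 12 pregnant heifers alone, WLS shared 2 of these 3 genes, LONRF3 all 3, CEP164 1 and C3H1orf226 none. WLS was most like CDA (0.95), MCF2L2 (0.93) and C5AR1 (0.93), and LONRF3 like BST1, RBM47 and PPP1R3B (0.95 each). CEP164 was most like DEDD2, a protein with a death effector domain (0.91), the import receptor IPO4 (0.89) and NCF1 (0.89). C3H1orf226 was most like the reductase DHRS4 (0.88), the cyclin-dependent kinase inhibitor CDKN2D (0.88) and the LIM protein FHL2 (0.83). CDA had 4.08 to 75.9 CPM in non-pregnant heifers and 0.267 to 36.8 in pregnant heifers. For BST1 the ranges were 5.51 to 93.7 and 1.07 to 88.0 CPM.

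Genes known to work with these proteins were listed by function, and 9 of 120 could be looked up. None of the 9 passed an adjusted p of 0.05 in any contrast (edgeR quasi-likelihood test), and none had an unadjusted p under 0.05. Of the 9, 6 had a positive and 3 a negative log2 fold change of pregnant over non-pregnant heifers, with a median of 0.33, against 0.11 for all genes tested. Without heifers 94, 107 and 113, 8 of the 9 had a negative value, between -0.96 and -0.11, and none passed the test. The median of all genes in that fit is not given here, so nothing about the partners is read from these signs. Since the tables list genes from results of the study on the same heifers, these 9 are not a neutral sample of their pathways.

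In the Wnt pathway, TMED10, a cargo receptor in the secretory pathway, had 78.9 to 248 CPM in non-pregnant and 55.6 to 302 CPM in pregnant heifers (log2 fold change 0.36 ± 0.38, SE, adjusted p = 0.74). APC, a scaffold of the complex that degrades beta-catenin, had a log2 fold change of 0.33 ± 0.43 (adjusted p = 0.79). GSK3A, a kinase of that complex, had one of -1.34 ± 0.82 (adjusted p = 0.61), with 0.246 to 89.3 CPM in non-pregnant and 0.805 to 47.1 CPM in pregnant heifers. No Wnt ligand, receptor or inhibitor could be looked up.

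Among proteins of the centriole, TTBK2, the kinase that CEP164 recruits, had a log2 fold change of -0.08 ± 0.89 (adjusted p = 0.98) and FBF1, of the distal appendages, one of -0.63 ± 0.90 (adjusted p = 0.81). CEP120 and CEP135, which build the centriole, had values of 0.05 ± 0.37 and 0.52 ± 0.60. FBF1 had at most 8.13 CPM in any heifer, and TTBK2 ranged from 0.123 to 42.7 CPM. Of 7 further centrosome and cilium genes, chosen after their symbols had been seen, none passed the threshold either, and IFT122, a subunit of intraflagellar transport, had the value farthest from 0 (-1.71 ± 0.88, adjusted p = 0.56).

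ATM, the DNA damage kinase, had a log2 fold change of 0.61 ± 0.60 (adjusted p = 0.72), with 19.0 to 328 CPM in non-pregnant and 47.9 to 386 CPM in pregnant heifers. LONRF1, the relative of LONRF3, had one of 0.69 ± 0.46 (adjusted p = 0.62) and ranged from 5.62 to 31.0 CPM in non-pregnant and from 9.33 to 38.3 CPM in pregnant heifers. With all heifers, the sign for LONRF1 is thus opposite to that for LONRF3, but the value does not pass the test. Without heifers 94, 107 and 113, the values were -0.31 ± 0.72 for ATM, -0.11 ± 0.53 for LONRF1 and -1.15 ± 1.13 for LONRF3 (SE). The relatives then had the same sign. The difference between the relatives was not tested, since LONRF3 was chosen on this contrast.

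**Figure D5:**
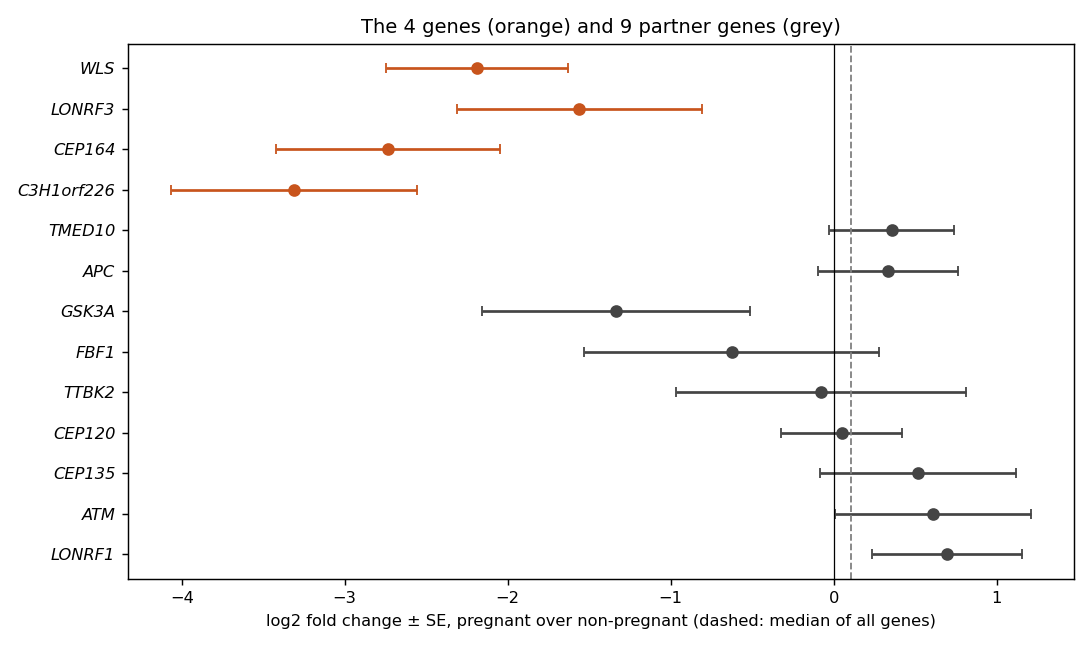
Log2 fold change of pregnant over non-pregnant heifers with its SE for the 4 genes (orange, a description) and the 9 partner genes (grey). The dashed line marks the median of all genes (0.11), and the 4 genes lie between -3.31 and -1.56 while the partners lie between -1.34 and 0.69, all heifers included.

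In plasma small RNA the 4 genes were nearly absent. WLS had 7 reads in all, in 5 of 17 libraries and at most 3 in a heifer, 6 of them in pregnant and 1 in non-pregnant heifers. LONRF3 had 5 reads in 3 libraries, CEP164 1 read in 1 library and C3H1orf226 none. Over 44742830 reads of the non-pregnant heifers, a count of 0 allows up to 0.0670 CPM. WLS alone had counts in enough libraries for a test, and its mean log2(CPM + 1) was 0.044 in non-pregnant and 0.12 in pregnant heifers (two-sided p = 0.74, exact permutation test). A difference in plasma was not detectable at this depth, and the library protocol selects short RNA.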

How the data were processed

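Per the labels and the study's methods, the authors aligned reads to ARS-UCD1.2 with HISAT2 2.1.0, removed reads with several alignments or 5 or more mismatches and duplicates, and deposited featureCounts 1.6.0 counts per gene (by strand for PWBC, unstranded for plasma), without normalization. The annotation version differs between the methods and the code. One non-pregnant library was removed by the authors for low yield. CPM was computed over the genes that reached 2 CPM in at least 5 libraries, without scaling factors, so genes of any type were kept. The contrasts were tested in 1 fit of the 3 groups with edgeR 4.0.16 (quasi-likelihood, robust, Benjamini-Hochberg over all genes, R 4.3.3), with DESeq2 1.42.0 as an alternative. Correlations used 100000 permutations, two-sided (Python 3.11.15, scipy 1.17.1). The tests were tested on simulated data.

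Symbols came only from the study's supplementary tables, which pair 2224 genes past the filter with an identifier. Neighbouring genes carry no identifier there and were not analysed here. The 4 genes and all lists were chosen with earlier results of these data known. Named genes are the 4, the list partners that passed the test or else the 2 highest of each list, and the 3 genes most like each. Genes named outside that rule were chosen after their values were seen, and these include the cell type markers quoted singly. Sequences were not analysed here. The summed level of 1 marker list is not reported here.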

Additional observations from a re-analysis of the deposited data

Results flagged for a closer look

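Within the groups of 5 or 6 heifers, 12 sets of CPM values were tested for a heifer far from the rest, and 4 were flagged, all in 2 pregnant heifers and for WLS and LONRF3. Chance flags about 1 in 20 sets if the values of a set follow a normal distribution. The limit was applied to CPM, and whether CPM follows that distribution was not tested. On the log2(CPM + 1) scale, WLS in NB-preg heifer 116 was 7.88, against 4.38 to 6.33 in the other 5, a gap not tested here. The sets are not independent, since WLS and LONRF3 were correlated. AI-preg heifer 114 had 128.8 CPM of WLS, where the other 5 had 19.1 to 38.6, and 26.49 CPM of LONRF3, where the other 5 had 2.15 to 4.36. NB-preg heifer 116 had 233.8 CPM of WLS, against 19.9 to 79.3 in the other 5, and 73.19 CPM of LONRF3, against 1.2 to 6.69. The gap to the nearest heifer was between 0.722 and 0.924 of the whole range, where 0.625 is the 95% limit for 6 values. No heifer was flagged for CEP164 or C3H1orf226, nor any non-pregnant heifer for any of the 4 genes.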

How the results depend on the processing

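With the filter on low counts, no gene was called by edgeR's quasi-likelihood test in any of the 4 contrasts. The same held with TMM factors, with the neutrophil covariate and with each heifer left out in turn (0 to 0). At an unadjusted p under 0.05, the main fit of that test had 16, 585, 672 and 986 genes. Without the filter, the same test called 3 genes for both pregnant groups against non-pregnant heifers. DESeq2 called 5 genes for AI-preg and 11 for NB-preg against non-pregnant heifers and 43 for both, and the likelihood ratio test 18 for both. All genes called were lower in pregnant heifers. The test of 6 pairs gave 1 in every setting but 0 without heifers 114 and 116. The 28 relations gave 0, but 1 by Spearman's rho and 0 to 1 with a heifer left out (1 without AI-preg heifer 92). With heifers left out, the log2 fold change of AI-preg over NB-preg ran from -1.17 to 0.35 for WLS and from -2.26 to 0.58 for LONRF3. The cause of these shifts was not tested. For plasma WLS the difference, non-pregnant minus pregnant, was -0.08 and ran from -0.12 to -0.02. The log2 difference of CEP164 between non-pregnant and pregnant heifers was 1.28 with a pseudocount of 4. Median log2 fold changes of all genes were 0.15 for AI-preg and 0.11 for all pregnant against non-pregnant heifers, and 0.02 and 0.03 with TMM factors. The alternatives with heifers 94, 107 and 113 or 114 and 116 left out together were chosen after seeing the data. Restriction to protein-coding genes was not run. No paired analysis was possible because no heifer number occurs in more than 1 group.

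Depth limits CEP164 and C3H1orf226 most, with as few as 1 and 5 read pairs in a heifer. The description of the chosen genes in PWBC rests on 5 non-pregnant heifers, 3 of them alike, and has no p-value. For partner and marker genes, the p-values of contrasts with non-pregnant heifers rest on the same few heifers. They weigh a difference between groups against the spread between the heifers studied.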

Other observations

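Some genes ran opposite to the 4. They were chosen after their values were seen and are a description. LONRF3 was most unlike LTV1, a factor of small ribosomal subunit assembly, with r = -0.96 over 17 heifers and -0.95 over 12 pregnant heifers. LTV1 had 37.7 to 137 CPM in non-pregnant heifers and 36.6 to 197 CPM in pregnant heifers. C3H1orf226 was most unlike WDR75, also of ribosome assembly (r = -0.92 over 17 heifers), which had 42.5 to 210 CPM in non-pregnant and 101 to 337 CPM in pregnant heifers. WLS was most unlike the chaperone HSPA14 (r = -0.89) and CEP164 most unlike CCDC82 (r = -0.90).

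Among 5 myeloid genes that were likewise chosen after their symbols had been seen, all had a negative log2 fold change of pregnant over non-pregnant heifers, with a median of -2.0, and none passed an adjusted p of 0.05 (edgeR quasi-likelihood test). NCF1 had -2.69 ± 0.66 (SE, adjusted p = 0.51), with 2.58 to 155 CPM in non-pregnant and 1.13 to 24.96 CPM in pregnant heifers. Without heifers 94, 107 and 113, 2 of the 5 had a negative value, with a range of -1.47 to 2.44.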
